A study of Mus musculus with 12 samples.

Results

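Tumours given muFAP-4-1BBL without radiotherapy were compared with tumours given no active treatment, over all genes that passed a filter on low counts. The comparison used 6 of the 12 RNA libraries of the series, 3 in each group, and 17757 of the 56884 annotated genes were tested. All tumours were grown in mice labelled WT from TS/A cells, a mouse mammary carcinoma line, together with cancer-associated fibroblasts (labelled TS/A+CAF). The first group (FAP41BBL) received muFAP-4-1BBL, and the second (control) carries the treatment label None and is called vehicle in the series' design text. The other libraries came from irradiated tumours with the agent (RT_FAP41BBL) and without it (RT). The labels give no animal, dose, time of harvest or batch, so p-values reflect only how far these samples spread, part of which may be technical.

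The receptor 4-1BB, encoded by Tnfrsf9, is a member of the TNF receptor family that appears on T cells and NK cells after activation. Its ligand brings receptor chains together, which recruits TRAF adaptors and switches on NF-kB, survival genes and cytotoxic function. As the name gives it, muFAP-4-1BBL joins this ligand to a binder of FAP, a protease on the surface of activated stromal cells, so that the receptor is meant to be triggered where such fibroblasts lie.

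Totals ran from 34076477 to 39069755 counts in FAP41BBL and from 35176469 to 38174041 in control libraries. Levels are given as CPM, the counts scaled to a common library total after TMM, and fold changes are FAP41BBL over control on the log2 scale with their standard error. Of fibroblast and mesenchymal markers, Col1a1 had 1900 to 3350 CPM in FAP41BBL and 2490 to 3000 CPM in control. Vim had 3380 to 4460 CPM in FAP41BBL and 4400 to 4680 CPM in control, whereas Fap was far lower (values below). Of epithelial markers, Krt8 had 232 to 343 CPM in FAP41BBL and 310 to 373 CPM in control, whereas Epcam had 2.59, 3.27 and 4.41 CPM in FAP41BBL against 0.421, 4.04 and 0.0824 CPM in control. A pair of libraries stood apart in the tissue they carried. FAP41BBL replicate 3 had the highest skeletal muscle and fibroblast marker levels of the 6, and control replicate 2 had hair follicle transcripts, a marker list that summed to 816 CPM there. The bulk tissue cannot tell fewer cells of a type from less RNA per cell.

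A single gene passed the test. Per1, a repressor of the circadian clock and a direct target of the glucocorticoid receptor, fell in the tumours given muFAP-4-1BBL. It had 46.6, 49.5 and 35.6 CPM in FAP41BBL, against 134, 135 and 104 CPM in control. The groups lay far apart, with the lowest control library above every FAP41BBL library by a wide margin. The means were 43.9 ± 7.35 CPM in FAP41BBL and 124 ± 17.4 CPM in control (SD, n = 3 each), and the log2 change was -1.50 ± 0.17 (adjusted p = 0.0141, edgeR's quasi-likelihood test). It was 0.00563% of the genes tested; DESeq2 passed 48 genes, 35 higher and 13 lower, with Per1 among them. The adjusted p was 0.109 without control replicate 1, 0.0779 without control replicate 2 and 0.066 when the 2 groups were fitted on their own, with log2 changes of -1.44, -1.44 and -1.50. Per1 spans chr11:68986043-69000786 on the plus strand in GRCm39.

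The irradiated libraries put the Per1 level in context. RT_FAP41BBL had 34.1, 32.7 and 33.7 CPM and RT had 42.7, 66.2 and 54.5 CPM, so that all 9 libraries of the treated groups lay below the control libraries. Within the irradiated tumours the agonist was again accompanied by a lower level, with a log2 change of -0.70 ± 0.16 (adjusted p = 0.0303, edgeR), in libraries that share none with the comparison above. In that comparison 5.76% of genes passed the test, and with the skeletal muscle level as a covariate 0 genes did, Per1 included. The muscle list had mean log2 CPM of 5.02, 5.15 and 4.3 in RT_FAP41BBL and 7.81, 7.72 and 8.87 in RT. The part of muscle was not tested. The difference between both log2 changes of Per1 was -0.80 ± 0.23 and did not pass the test (adjusted p = 0.155, edgeR). FAP41BBL against RT gave -0.31 for Per1 (adjusted p = 0.37, edgeR), in a comparison where 3.51% of genes passed.

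Per1 belongs to a list of 29 genes that glucocorticoids induce in many tissues. Glucocorticoids are steroid hormones of the adrenal gland; their receptor enters the nucleus on binding and raises genes that restrain inflammation and adjust metabolism. Of the 28 members tested, 7 had every FAP41BBL library below every control library (25% of the list), and over all genes tested 5.07% did. In the other direction the list held 1 such gene (3.57%), against 5.7% of all genes. At an unadjusted p under 0.05, 9 members were lower, against 1.77% of all genes tested, and 1 was higher, against 3.4% of all genes. The median log2 change of the list was -0.08, beside 0.01 over all genes. That median was -0.34 without FAP41BBL replicate 3 and -0.56 with the adipocyte level described below as a covariate.

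Tsc22d3, which encodes the anti-inflammatory mediator GILZ, had 63.7, 52.9 and 53.2 CPM in FAP41BBL, against 159, 152 and 99.5 CPM in control. Its log2 change was -1.27 ± 0.19 (adjusted p = 0.067, edgeR). Arrdc2, an arrestin-domain gene, had 23.5, 17 and 17 CPM in FAP41BBL, against 46.5, 41.3 and 28.7 CPM in control, a log2 change of -1.02 ± 0.17 (adjusted p = 0.114). For both genes control replicate 3 was the lowest of the controls, and without it the adjusted p was 0.0172 for Tsc22d3 and 0.0213 for Arrdc2. Dusp1, a phosphatase that switches off MAP kinases, had 34.8, 29.1 and 29.8 CPM in FAP41BBL, against 59.3, 50.2 and 53.4 CPM in control. Fkbp5, a chaperone partner of the glucocorticoid receptor that dampens its activity, had 121, 160 and 133 CPM in FAP41BBL, against 228, 264 and 252 CPM in control. The log2 changes were -0.80 ± 0.15 for Dusp1 and -0.85 ± 0.20 for Fkbp5 (adjusted p of 0.327 and 0.532). Sgk1, a kinase that regulates ion transport, and Ddit4, an inhibitor of mTOR signalling, completed the group. Sgk1 had 72.2, 82.0 and 74.0 CPM in FAP41BBL, against 105, 105 and 86.6 CPM in control. Ddit4 had 56.6, 35 and 41.0 CPM in FAP41BBL, against 75.4, 67.3 and 71.6 CPM in control. The log2 changes were -0.38 ± 0.10 for Sgk1 and -0.69 ± 0.23 for Ddit4 (adjusted p of 0.682 and 0.845, edgeR). With the adipocyte level described below as a covariate they were -0.56 for Sgk1 and -0.26 for Ddit4.

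**Figure D1:**
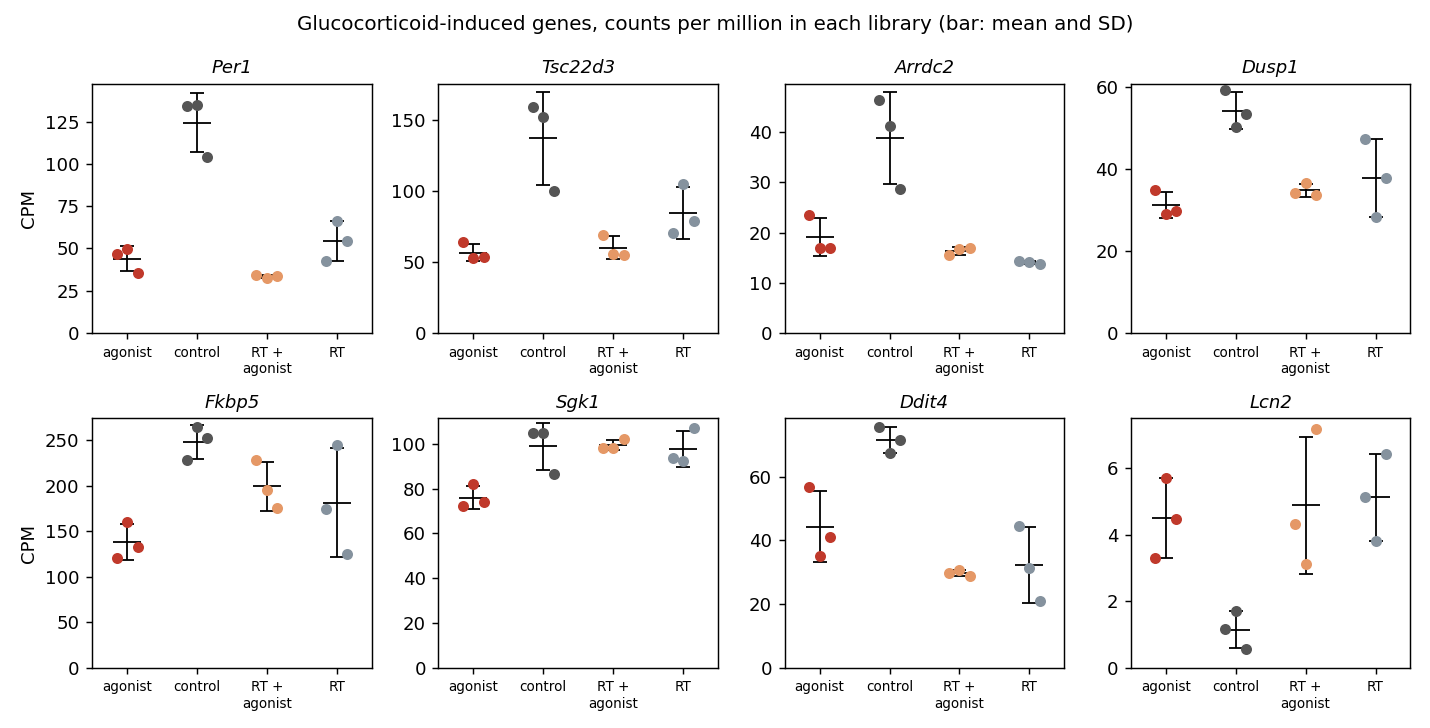
CPM (vertical axis, linear from 0) of 8 glucocorticoid-induced genes in each of the 12 libraries, one point per library, with the mean and SD of each group (agonist is FAP41BBL). Per1 lies at 35.6 to 49.5 CPM in the agonist group and at 104 to 135 CPM in control, and Lcn2 lies the other way.

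Other members overlapped between groups. The metallothioneins, which bind metals, are also glucocorticoid targets. Mt1 had 161, 94.1 and 145 CPM in FAP41BBL, against 149, 143 and 110 CPM in control. The receptor gene itself, Nr3c1, had 149, 185 and 163 CPM in FAP41BBL, against 159, 150 and 143 CPM in control, a log2 change of 0.13 ± 0.09. The member that lay higher was Lcn2, an iron-binding protein that NF-kB induces as well, with 3.3, 5.7 and 4.47 CPM in FAP41BBL, against 1.15, 1.7 and 0.577 CPM in control. Without FAP41BBL replicate 3 and control replicate 2, 12 of the 28 members were lower in every remaining FAP41BBL library (42.9%), and over all genes 12.9% were. In the irradiated comparison the median of the list was -0.04. There 1 of 28 members, Per1, passed the test downward, beside 426 of the 17757 genes tested.

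Promoters of 3 members that hold at least 1 of the motifs below are shown. Control by a shared regulator was not tested. The windows run from 250 bases before to 50 bases after a RefSeq transcription start in GRCm38.p6. Capitals mark 3 motifs searched on both strands: the E-box CACGTG, bound by the clock activators CLOCK and BMAL1; TGACGT, the core of the element bound by CREB-type factors; and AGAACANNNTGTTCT, a full palindrome of the glucocorticoid receptor. Per1 has 2 starts in the table.
Per1, first start, chr11:69098699-69098998, plus strand: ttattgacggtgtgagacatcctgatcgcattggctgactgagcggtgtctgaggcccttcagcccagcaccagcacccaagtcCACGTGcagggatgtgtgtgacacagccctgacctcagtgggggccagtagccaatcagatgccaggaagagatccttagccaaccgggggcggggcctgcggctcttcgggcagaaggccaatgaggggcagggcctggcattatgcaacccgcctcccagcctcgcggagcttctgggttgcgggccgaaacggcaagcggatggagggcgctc
Per1, second start, chr11:69099902-69100201, plus strand: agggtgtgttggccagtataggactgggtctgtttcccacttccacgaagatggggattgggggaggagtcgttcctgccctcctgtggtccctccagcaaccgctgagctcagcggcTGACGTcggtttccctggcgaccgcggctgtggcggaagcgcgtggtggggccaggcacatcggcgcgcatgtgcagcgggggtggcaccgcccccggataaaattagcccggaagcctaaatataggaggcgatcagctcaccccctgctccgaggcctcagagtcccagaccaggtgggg
Sgk1, chr10:21993640-21993939, plus strand: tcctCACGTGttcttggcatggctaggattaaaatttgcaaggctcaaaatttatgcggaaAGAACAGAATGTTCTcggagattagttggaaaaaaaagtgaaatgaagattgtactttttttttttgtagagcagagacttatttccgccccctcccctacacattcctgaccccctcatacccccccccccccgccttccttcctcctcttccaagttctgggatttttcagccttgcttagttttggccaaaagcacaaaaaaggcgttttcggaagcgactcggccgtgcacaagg
Dusp1, chr17:26508423-26508722, minus strand: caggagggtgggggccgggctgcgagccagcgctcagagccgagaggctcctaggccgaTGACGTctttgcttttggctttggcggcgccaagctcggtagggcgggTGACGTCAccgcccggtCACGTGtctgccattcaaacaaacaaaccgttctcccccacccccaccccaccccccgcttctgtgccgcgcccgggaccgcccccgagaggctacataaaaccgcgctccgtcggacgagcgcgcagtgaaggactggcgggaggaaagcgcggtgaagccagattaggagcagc
The first Per1 window holds an E-box and the second a TGACGT, while the Sgk1 window holds the receptor palindrome. Neither Per1 window has an exact match to that palindrome, and sequence outside the windows was not searched. Of the other lower members, Fkbp5 held an E-box, and no match was found for Tsc22d3, Arrdc2 and Ddit4. Over 32851 promoter windows, 7.15% held CACGTG, 7.51% TGACGT and 0.00913% the palindrome. Of the glucocorticoid-induced genes 24 of 29 matched the table, with 33 windows, of which 7 held CACGTG (21.2%), 5 held TGACGT (15.2%) and 1 held the palindrome (3.03%). A match describes the letters of the window and not a bound site.

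No other gene of the core clock passed the test. The core clock list holds the activators, repressors and output genes of the daily cycle, and 18 of its 23 members tested had a log2 change above 0. The median was 0.18, and it was -0.0 with the adipocyte level described below as a covariate. At an unadjusted p under 0.05, 6 of the 23 members were higher, against 3.4% of all genes, and 1 was lower, against 1.77%. Without FAP41BBL replicate 3 and control replicate 2, 7 were higher without overlap (30.4%, beside 15.5% of all genes). There 3 were lower, beside 12.9% of all genes. With every library kept, the count without overlap was 1 higher and 1 lower (4.35% each), below the 5.7% and 5.07% of all genes. The higher one was Bhlhe41, a clock repressor, with 17.5, 13 and 15.1 CPM in FAP41BBL, against 12, 11.5 and 11.1 CPM in control, and the lower one was Per1. The nearest relative Per2 had 22.3, 31.8 and 24.5 CPM in FAP41BBL, against 22.7, 27.1 and 19.5 CPM in control (log2 change 0.18 ± 0.18). Per3 gave 0.32 ± 0.16, and the repressors Cry1 and Cry2 gave 0.39 ± 0.15 and 0.10 ± 0.14. The activators Clock and Arntl gave 0.13 ± 0.16 and -0.15 ± 0.13. Among the outputs that peak at set hours, Dbp gave 0.64 ± 0.26, Nr1d1 0.38 ± 0.30 and Nr1d2 0.33 ± 0.13. Bhlhe40, a repressor that many stimuli induce, gave 0.39 ± 0.18. After Per1, the smallest unadjusted p was 0.0231, for Hlf, at 0.352, 0.781 and 1.77 CPM in FAP41BBL against 0.281, 0.438 and 0.302 CPM in control. In the irradiated comparison the list's median was -0.29 and 4 of 23 members passed the test downward, beside 426 of the 17757 genes tested.

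Levels of inflammatory genes lay higher in the tumours given muFAP-4-1BBL, although no gene but Per1 passed the adjusted threshold. The list of inflammatory cytokines and NF-kB targets had 34 members tested, and 32 had a log2 change above 0, with a median of 0.60 against 0.01 over all genes. In 20 of them (58.8%) every FAP41BBL library exceeded every control library, and 21 had an unadjusted p under 0.05 on the higher side, against 5.7% and 3.4% of all genes. Without FAP41BBL replicate 3 and control replicate 2 the count was 23 (67.6%), beside 15.5% of all genes. None was lower without overlap.

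Ptgs2, the inducible cyclooxygenase that makes prostaglandins, had 75.8, 122 and 89.3 CPM in FAP41BBL, against 38.0, 48.4 and 49.6 CPM in control. Its means were 95.8 ± 23.9 CPM in FAP41BBL and 45.3 ± 6.39 CPM in control, and its log2 change was 1.08 ± 0.16 (adjusted p = 0.067, edgeR; 0.0445 without FAP41BBL replicate 1). Cd83, a surface protein of activated dendritic cells and lymphocytes, had 26.1, 23.2 and 24.2 CPM in FAP41BBL, against 9.74, 7.88 and 12.3 CPM in control. The FAP41BBL libraries lay close together and well above all controls, with a log2 change of 1.30 ± 0.28 (adjusted p = 0.417). Ier3, an early stress-response gene, had 57.6, 39.0 and 38.0 CPM in FAP41BBL, against 21.6, 26.8 and 27.3 CPM in control. Tnf, the founding cytokine of the TNF family, had 8.1, 9.81 and 5.57 CPM in FAP41BBL, against 2.72, 2.91 and 4.7 CPM in control. Plaur, the urokinase receptor, had 83.3, 66.9 and 92.4 CPM in FAP41BBL, against 54.3, 58.5 and 63.8 CPM in control. Its ligand Plau, urokinase, had 128, 121 and 148 CPM in FAP41BBL, against 77.0, 95.4 and 95.3 CPM in control (log2 change 0.57 ± 0.11, adjusted p = 0.346).

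**Figure D2:**
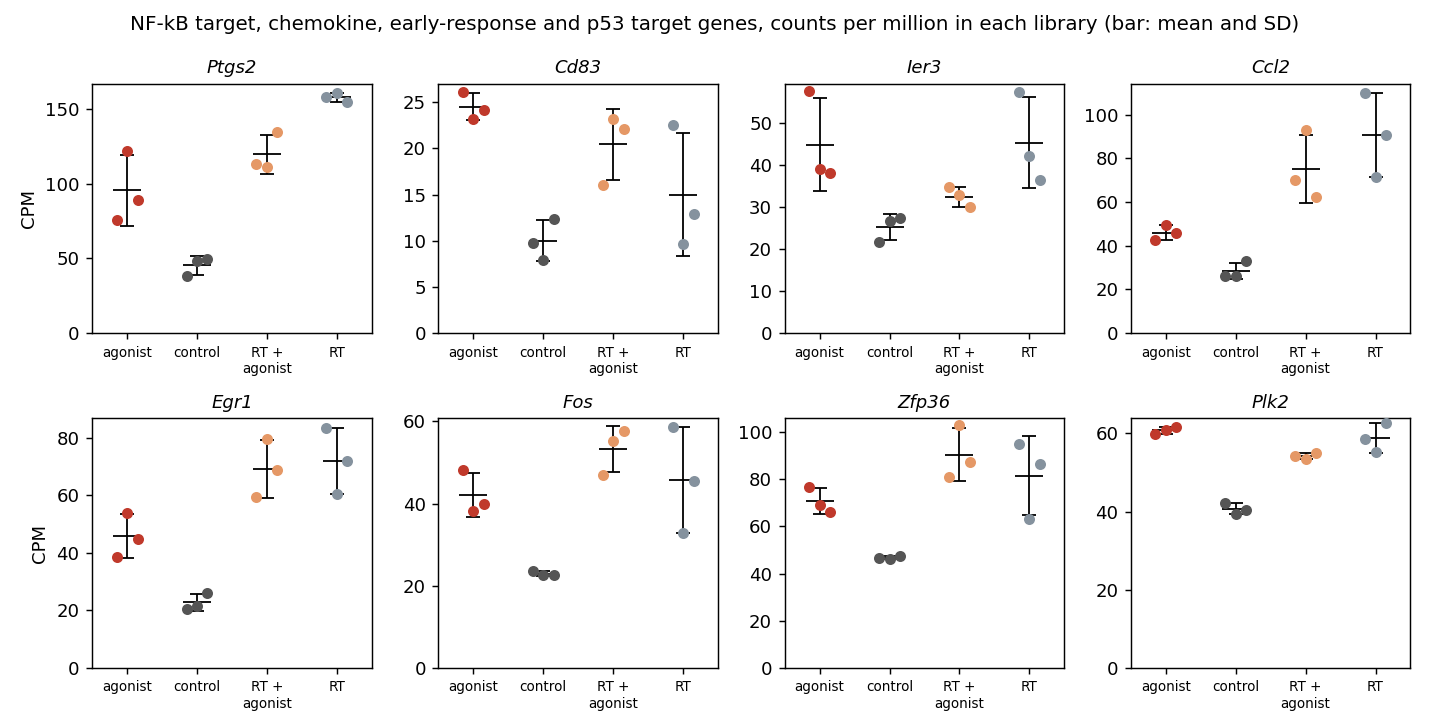
CPM (vertical axis, linear from 0) of 8 inflammatory, early-response and p53 target genes in each library, one point per library, with the mean and SD of each group (agonist is FAP41BBL). Ptgs2 lies at 75.8 to 122 CPM in the agonist group and 38.0 to 49.6 CPM in control; the RT libraries lie at 155 to 161 CPM.

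Immediate early genes, transcription factors and feedback regulators that signalling induces within minutes, also lay higher in most members. Of 28 tested, 16 were higher in every FAP41BBL library (57.1%, against 5.7% of all genes) and 1, Dusp1, was lower (3.57%, against 5.07%), with a median log2 change of 0.28. Without the 2 libraries that stood apart, 20 were higher (71.4%, against 15.5%). Egr1, a zinc-finger factor, had 38.5, 53.7 and 44.9 CPM in FAP41BBL, against 20.6, 21.6 and 26.1 CPM in control (log2 change 1.00 ± 0.16, adjusted p = 0.0869, edgeR). Fos, a subunit of AP-1, had 48.2, 38.2 and 39.8 CPM in FAP41BBL, against 23.6, 22.5 and 22.7 CPM in control. Zfp36, which destabilises cytokine mRNA, had 76.7, 69.3 and 66.0 CPM in FAP41BBL, against 46.8, 46.0 and 47.3 CPM in control. Nr4a1, an orphan nuclear receptor induced by antigen receptor signals, had 19.6, 18.7 and 19.6 CPM in FAP41BBL, against 13, 13.1 and 14.2 CPM in control. The controls of Fos and Zfp36 differed by little among themselves, and every FAP41BBL library lay above them.

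Promoters of 3 of these higher genes carry the TGACGT core and are shown beside the Per1 windows, with the same marks; in Ptgs2 the core on the minus strand and the E-box overlap.
Ptgs2, chr1:150099781-150100080, plus strand: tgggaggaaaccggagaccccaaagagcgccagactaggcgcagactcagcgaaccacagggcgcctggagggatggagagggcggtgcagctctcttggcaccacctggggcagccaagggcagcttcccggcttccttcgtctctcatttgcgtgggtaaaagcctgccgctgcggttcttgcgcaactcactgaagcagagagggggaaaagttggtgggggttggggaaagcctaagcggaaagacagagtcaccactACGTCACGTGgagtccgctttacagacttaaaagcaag
Plk2, chr13:110394794-110395093, plus strand: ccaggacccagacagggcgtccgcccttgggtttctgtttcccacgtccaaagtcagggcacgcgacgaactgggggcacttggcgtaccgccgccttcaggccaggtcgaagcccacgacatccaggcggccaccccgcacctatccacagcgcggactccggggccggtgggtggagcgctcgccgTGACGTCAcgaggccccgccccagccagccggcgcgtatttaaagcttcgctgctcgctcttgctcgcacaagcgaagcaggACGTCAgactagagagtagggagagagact
Fos, chr12:85473640-85473939, plus strand: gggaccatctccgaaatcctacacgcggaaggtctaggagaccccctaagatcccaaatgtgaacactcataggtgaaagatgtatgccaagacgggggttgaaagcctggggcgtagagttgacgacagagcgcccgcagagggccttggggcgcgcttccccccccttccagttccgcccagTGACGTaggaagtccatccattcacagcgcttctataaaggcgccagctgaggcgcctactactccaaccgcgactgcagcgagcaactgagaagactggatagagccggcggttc
Of the 24 genes named by size of p (12 in each direction), 19 matched the table with 22 windows, and TGACGT stood in 7 of these (31.8%), from genes on both sides: Ccn1, Fos, Gzmc, Plk2 and Ptgs2 were higher, Dusp1 and Per1 lower.

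The remaining higher genes of that set came from several processes. Plk2, a stress kinase and p53 target, had 59.9, 60.9 and 61.7 CPM in FAP41BBL, against 42.3, 39.5 and 40.4 CPM in control. It had the next smallest p after Per1 of all genes, with a log2 change of 0.58 ± 0.08 (adjusted p = 0.0535, edgeR). Rgs16, which shortens G protein signals, had 19.9, 20.9 and 24.9 CPM in FAP41BBL, against 11.3, 11.3 and 10.9 CPM in control (log2 change 0.98 ± 0.14, adjusted p = 0.0643). Arg2, the mitochondrial arginase, had 12.9, 9.92 and 11.9 CPM in FAP41BBL, against 4.57, 3.27 and 4.64 CPM in control (log2 change 1.48 ± 0.23, adjusted p = 0.067). Slc30a1, a zinc exporter, Inhba, the activin A subunit, and Ccn1, a matricellular protein, gave log2 changes of 0.59 ± 0.11, 0.89 ± 0.19 and 0.74 ± 0.16 (adjusted p of 0.204, 0.379 and 0.379).

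On the lower side, Jade2, a subunit of histone acetyltransferase complexes, had 87.1, 120 and 94.3 CPM in FAP41BBL, against 146, 150 and 145 CPM in control. Sla, an adaptor that lowers antigen receptor signalling, had 50, 67.4 and 43.2 CPM in FAP41BBL, against 89.2, 86.5 and 85.5 CPM in control. Jaml, an adhesion molecule of leukocytes, had 46.4, 65.6 and 45.8 CPM in FAP41BBL, against 85.1, 74.1 and 86.0 CPM in control. For each of these the FAP41BBL libraries spread more than the controls, and none reached them. BC034090, Ankrd35, Slc22a23 and Wdr6 had log2 changes of -0.88 ± 0.20, -1.11 ± 0.26, -0.50 ± 0.12 and -0.60 ± 0.15. The adjusted p of these 7 genes lay between 0.379 and 0.579 (edgeR).

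The receptor that the agent engages had a higher level without overlap. Tnfrsf9 had 27.5, 34.2 and 36.9 CPM in FAP41BBL, against 20.5, 20.6 and 24.3 CPM in control, a log2 change of 0.59 ± 0.15 (adjusted p = 0.6, edgeR). The natural ligand gene Tnfsf9 had 13.6, 10.2 and 11.2 CPM in FAP41BBL, against 9.57, 9.73 and 11.3 CPM in control. Fap, the docking target, had 5.74, 7.67 and 18.9 CPM in FAP41BBL, against 4.77, 8.37 and 10.4 CPM in control. The groups of the last 2 overlapped, and the Fap mean of FAP41BBL rests on replicate 3, without which its log2 change was -0.23 instead of 0.46. Per kilobase of exon, the mean levels were 12.1 for Tnfrsf9 and 1.9 for Fap in FAP41BBL, and 8.01 for Tnfrsf9 and 1.38 for Fap in control (CPM per kilobase).

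Downstream of the receptor, 20 of the 24 genes of the 4-1BB signalling list had a log2 change above 0, with a median of 0.13, and 4 were higher without overlap (16.7%, against 5.7% of all genes). Leaving out FAP41BBL replicate 3 and control replicate 2, 6 were higher (25.0%, beside 15.5% of all genes) and 2 lower (8.33%, beside 12.9%). Traf1, an adaptor bound by the receptor's tail and itself an NF-kB target, had 21.9, 21.9 and 23.7 CPM in FAP41BBL, against 14.3, 15 and 17 CPM in control (log2 change 0.55 ± 0.14, adjusted p = 0.579). Tnfaip3, the feedback inhibitor A20, had 63.1, 59.4 and 57.9 CPM in FAP41BBL, against 42.3, 45.0 and 55.3 CPM in control. Birc3, the ubiquitin ligase cIAP2, had 41.8, 46.4 and 47.7 CPM in FAP41BBL, against 36.3, 37.2 and 40.9 CPM in control. The other adaptors, NF-kB subunits and survival genes had log2 changes from -0.16 to 0.35, and all overlapped.

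All 28 T cell markers tested had a log2 change above 0, with a median of 0.41, and 7 were higher without overlap (25%, against 5.7% of all genes). Without control replicate 2 the median was 0.27. With FAP41BBL replicate 3 also left out, 8 were higher without overlap (28.6%, beside 15.5% of all genes) and 2 lower (7.14%, beside 12.9%). Cd4, the coreceptor of helper T cells, had 14.4, 22.6 and 14.6 CPM in FAP41BBL, against 12.4, 9.06 and 12.4 CPM in control (log2 change 0.61 ± 0.22, adjusted p = 0.905, edgeR). Cd8a, that of cytotoxic T cells, had 16.1, 18.1 and 19.3 CPM in FAP41BBL, against 19.6, 11.1 and 18.9 CPM in control, a log2 change of 0.10 ± 0.32. Control replicate 2 was the lowest library for Cd8a, and also for Cd2, Lck and Trac. These 3 genes of T cell adhesion and antigen receptor signalling had log2 changes of 0.68 ± 0.22, 0.48 ± 0.21 and 0.48 ± 0.22. Foxp3, the factor of regulatory T cells, had 2.29, 2.81 and 4.38 CPM in FAP41BBL, against 2.16, 2.39 and 1.76 CPM in control.

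Among cytotoxic effectors 27 of 28 were above 0, with a median of 0.54 (0.33 without control replicate 2), and 8 were higher without overlap (28.6%, against 5.7% of all genes). That count was also 8 without FAP41BBL replicate 3 and control replicate 2, beside 15.5% of all genes. The granzymes, proteases of killer lymphocytes, differed among themselves. Gzmc had 15.9, 22.0 and 18.7 CPM in FAP41BBL, against 8.92, 10.6 and 4.64 CPM in control (log2 change 1.22 ± 0.26, adjusted p = 0.404). Gzmd and Gzme gave 1.63 ± 0.47 and 1.68 ± 0.46, with no overlap; these near-identical genes can share reads, so single values are uncertain. Gzmb had 23.1, 49.4 and 29.4 CPM in FAP41BBL, against 25.4, 14.2 and 24.2 CPM in control, so the groups overlapped. Prf1, the pore-forming perforin, gave 0.83 ± 0.29 and Klrg1, a receptor of terminally differentiated effectors, 1.30 ± 0.29. Ifng had 1.81, 2.6 and 1.89 CPM in FAP41BBL, against 1.6, 1.11 and 0.879 CPM in control. FAP41BBL replicate 2 was the highest library for Gzmb and Cd4.

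Checkpoint genes showed 7 of 20 members higher without overlap (35%, against 5.7% of all genes) and a median of 0.27, which was 0.42 without control replicate 1. Cd274, which encodes PD-L1, had 93.6, 149 and 103 CPM in FAP41BBL, against 66.1, 59.4 and 91.1 CPM in control. Pdcd1lg2, which encodes PD-L2, had 6.22, 9.98 and 5.48 CPM in FAP41BBL, against 3.28, 2.39 and 3.16 CPM in control. Tox, a regulator of exhausted T cells, gave 0.92 ± 0.26, and the ligands of CD28, Cd80 and Cd86, gave 0.54 ± 0.19 and 0.37 ± 0.21. Pdcd1 itself overlapped, with 6.59, 8.97 and 7.51 CPM in FAP41BBL against 7.32, 4.89 and 6.56 CPM in control.

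Chemokines that draw monocytes and T cells had a median of 0.46 (0.29 without FAP41BBL replicate 3), and 8 of 28 were higher without overlap (28.6%, against 5.7% of all genes). That count was 11 (39.3%, beside 15.5% of all genes) without FAP41BBL replicate 3 and control replicate 2. Ccl2, which recruits monocytes, had 42.8, 49.5 and 45.8 CPM in FAP41BBL, against 26.1, 26.3 and 32.9 CPM in control (log2 change 0.69 ± 0.17, adjusted p = 0.592, edgeR). Ccl7, Ccl3 and Cxcl10 gave 0.80 ± 0.22, 1.13 ± 0.32 and 0.63 ± 0.23, and Cxcl3, near its detection limit, 2.02 ± 0.52. Of the type I interferon response genes 4 of 32 were higher without overlap (12.5%, against 5.7%); Rsad2, an antiviral enzyme, gave 0.65 ± 0.24 with overlapping groups. The median of that list was 0.29, and it was 0.13 without FAP41BBL replicate 2 and 0.60 with the adipocyte level as a covariate. The interferon-gamma list had 4 of 30 (13.3%) and a median of 0.26, which was 0.05 without FAP41BBL replicate 2 and 0.62 with that covariate. The groups overlapped in all 18 class I presentation genes, whose median was 0.05, and in all but 2 of 12 class II genes (median -0.02). In macrophages and monocytes 3 of 28 were higher without overlap (10.7%, against 5.7%), with a median of 0.18; Arg1 gave 1.01 ± 0.41 and Nos2 0.51 ± 0.23, both overlapping.

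All 26 genes of the G2/M list had a log2 change below 0, from -0.26 to -0.01, with 2 of them, Hmmr among these, below control in every library (7.69%, against 5.07% of all genes). Mki67, a marker of cycling cells, had 332, 378 and 405 CPM in FAP41BBL, against 409, 402 and 451 CPM in control (log2 change -0.18 ± 0.22). Of 29 p53 targets 7 were higher (24.1%, against 5.7% of all genes) and 2 lower without overlap (6.9%, against 5.07%), with a median of 0.06. Besides Plk2, the cell cycle inhibitor Cdkn1a had 55.5, 60.1 and 61.5 CPM in FAP41BBL, against 36.8, 47.4 and 41.3 CPM in control. Btg2, Pmaip1 and the death receptor Fas gave 0.53 ± 0.14, 0.54 ± 0.15 and 0.68 ± 0.19. Heat shock genes overlapped except 3 of 19 (15.8%, against 5.7%); Hspa1a had 28.7, 9.86 and 9.98 CPM in FAP41BBL, against 3.45, 4.99 and 5.35 CPM in control. Fibroblast markers had a median of 0.05, which was -0.41 without FAP41BBL replicate 3. Of 22 tested, 1 was higher (4.55%, against 5.7% of all genes) and 2 lower without overlap (9.09%, against 5.07%). Without FAP41BBL replicate 3 and control replicate 2, 12 were lower (54.5%, beside 12.9% of all genes) and 1 higher (4.55%, beside 15.5%). Mmp2, a matrix protease, had 471, 482 and 520 CPM in FAP41BBL against 710, 548 and 576 CPM in control.

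**Figure D3:**
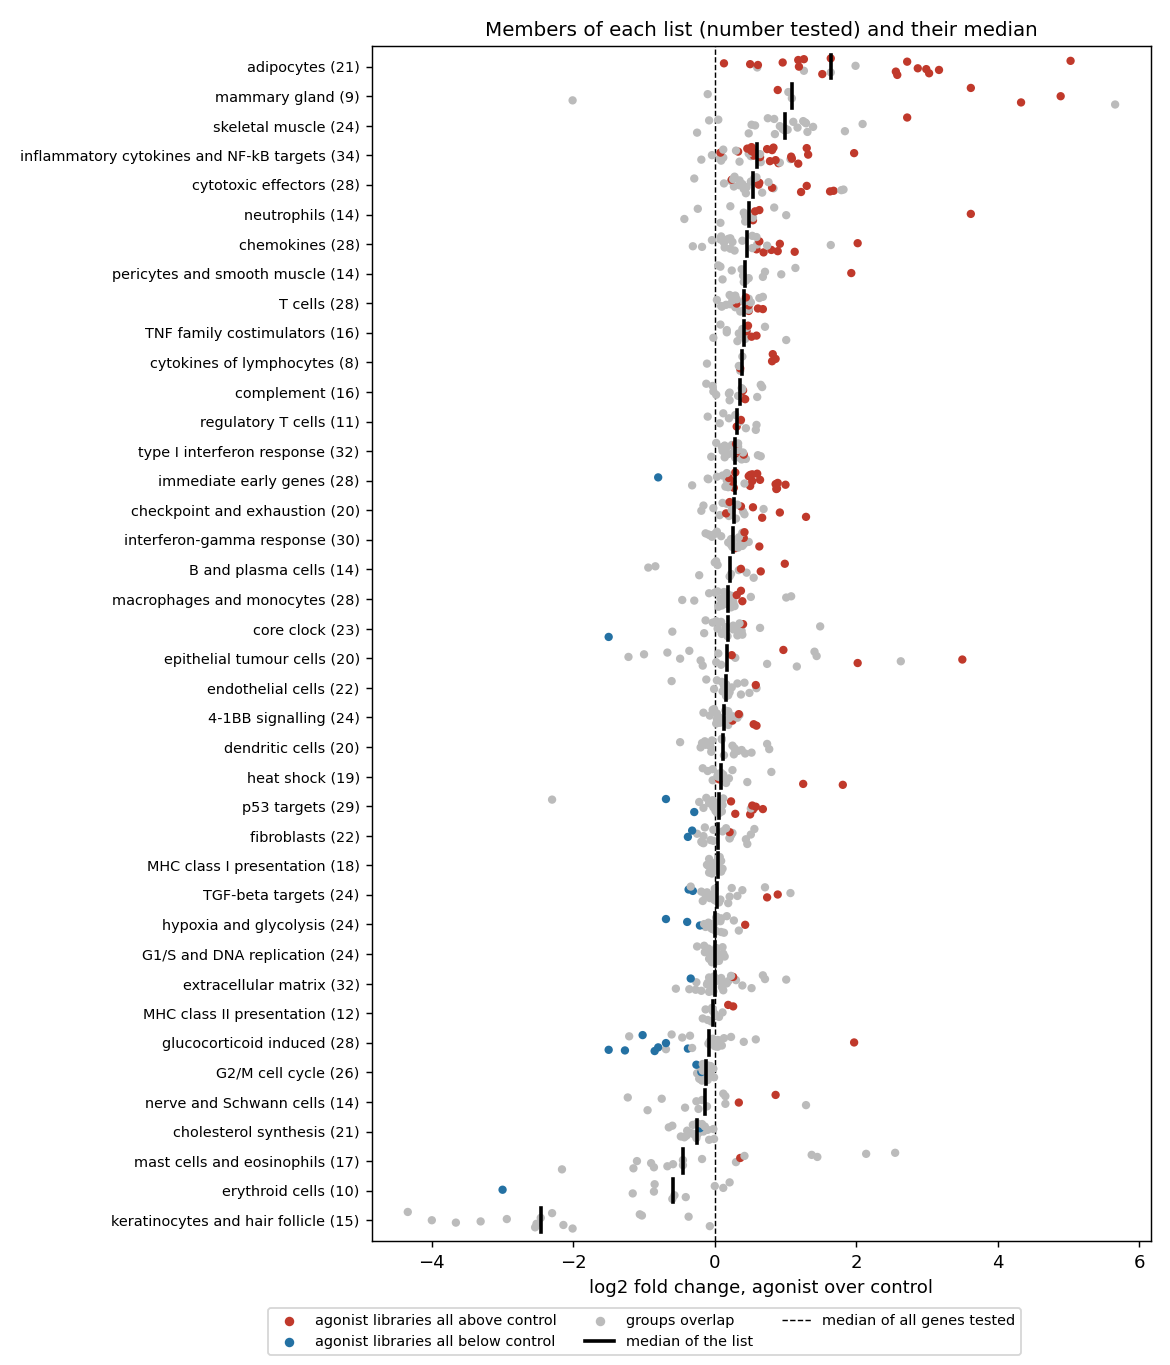
Log2 fold change of FAP41BBL over control (horizontal axis) for every tested member of the 40 lists, ordered by their medians (black bars), with the median of all genes as a dashed line. Red points are genes with all agonist libraries above control, blue points all below; the NF-kB list has 20 red points of 34 and the glucocorticoid list 7 blue points of 28.

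Genes of adipocytes, the fat cells that surround the mammary gland and the skin, lay higher in FAP41BBL. All 21 members tested had a log2 change above 0, 17 were higher without overlap (81%, against 5.7% of all genes), and the median was 1.64. The list of keratinocytes and hair follicle had a median of -2.46 with all 15 members tested below 0, no member apart, and a median of 0.92 without control replicate 2. Adipoq, which encodes adiponectin, had 8.23, 11.7 and 24.3 CPM in FAP41BBL, against 2.61, 4.25 and 0.494 CPM in control (log2 change 2.58 ± 0.99, adjusted p = 0.937, edgeR). Adrb3, the adrenergic receptor of fat, had 2.49, 3.15 and 3.39 CPM in FAP41BBL, against 0, 0.206 and 0.0549 CPM in control. Car3, Retn, Dgat2 and Acsl1 gave 2.72 ± 0.85, 3.17 ± 1.04, 1.18 ± 0.41 and 0.61 ± 0.19. The list summed to 774 to 1450 CPM in FAP41BBL and to 365 to 572 CPM in control, and none of its genes was at 0 in every library of a group.

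Mammary gland transcripts lay the same way in 7 of the 9 members tested, while 2 were below 0 and 5 of the 14 were not tested. Without overlap, 4 of 9 were higher (44.4%, against 5.7%), and the median was 1.09. That median was 0.65 without control replicate 1 and 3.84 without control replicate 2. Csn3, the milk protein kappa-casein, had 3.17, 2.86 and 1.74 CPM in FAP41BBL, against 0.0561, 0.154 and 0.165 CPM in control (log2 change 4.33 ± 0.82, adjusted p = 0.327). Prlr, the prolactin receptor, had 3.1, 8.56 and 14.2 CPM in FAP41BBL, against 0.225, 0.36 and 0.275 CPM in control. Ltf, the milk and neutrophil protein lactoferrin, and Areg, a growth factor of the EGF family, gave 3.62 ± 0.99 and 0.89 ± 0.29. The simple-epithelial genes Krt7 and Cldn7 gave 2.02 ± 0.49 and 3.5 ± 0.97, the latter being the highest of the epithelial list. That list was mixed, with 13 of 20 members above 0 and 7 below. Its median was 0.17, and 1.34 without control replicate 2. In 4 members (20%, against 5.7% of all genes) FAP41BBL was higher without overlap. The list summed to 344 to 495 CPM in FAP41BBL and 425 to 531 CPM in control. The mean log2 CPM of the mammary list was 1.46, 1.52 and 1.51 in FAP41BBL and -1.02, 0.33 and -1.29 in control. Its summed level overlapped, with 55.9 to 68.7 CPM in FAP41BBL and 36.5 to 77.8 CPM in control. Muscle did not separate the groups, with means of 3.81, 2.10 and 5.99 in FAP41BBL and 4.34, 4.36 and 1.39 in control. Erythroid genes had a median of -0.59 (-1.29 without FAP41BBL replicate 3 and -0.26 without control replicate 2); Slc4a1, the red cell anion exchanger, was at 0, 0.0868 and 0.058 CPM in FAP41BBL against 0.421, 0.592 and 0.165 CPM in control. The part of fat and gland tissue in the gene groups above was not tested; with the adipocyte level as a covariate Per1 gave -1.54 ± 0.23 (adjusted p = 0.0166), and the medians were 0.49 for the inflammatory list and 0.41 for the immediate early genes.

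**Figure D4:**
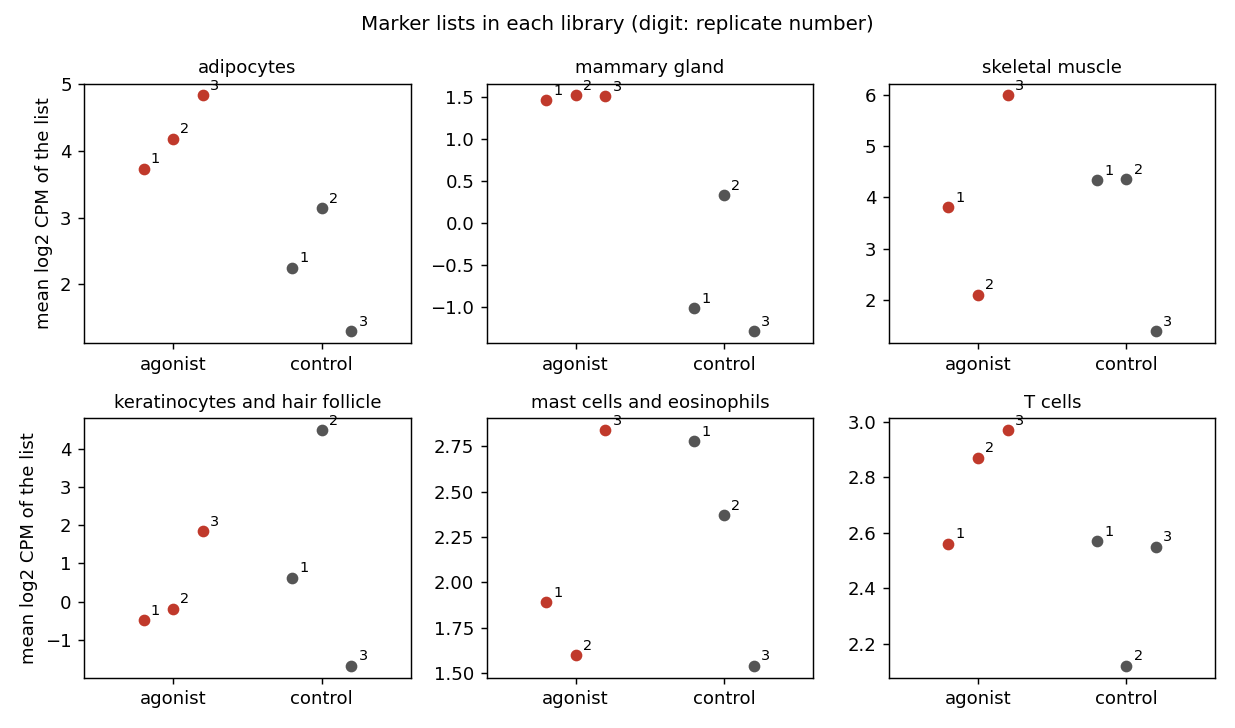
Mean log2 CPM (vertical axis) of 6 marker lists in each FAP41BBL (agonist) and control library, with the replicate number beside each point. Adipocyte and mammary gland lists do not overlap between the groups, while muscle, hair follicle, mast cell and T cell lists do.

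The irradiated tumours offered the same agent in libraries that share none with these 6. Of the 12 named higher genes, 5 also had a positive log2 change in RT_FAP41BBL against RT, and of the 12 named lower genes 3 a negative one, 8 of 24 in all (33.3%). Over all genes tested, 52.7% had the same sign in both comparisons. The median of the 12 higher genes was 0.93 in FAP41BBL against control and -0.04 in RT_FAP41BBL against RT, and that of the 12 lower genes was -0.82 and 0.21. The inflammatory list had a median of 0.09 and the immediate early list -0.01 in the irradiated comparison, whereas the T cell list had 0.90 there. In that list 10 of 28 members passed the test upward, beside 596 of the 17757 genes tested.

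The change with the agonist differed by the presence of radiotherapy in 0.152% of genes. The 24 named genes were chosen on FAP41BBL against control, which is one side of that difference, so the 4 of them that passed are given as a description and are not read against that share. Sla had 87.3, 88.3 and 90.7 CPM in RT_FAP41BBL, against 29.8, 39.3 and 45.0 CPM in RT, so its direction was opposite to that without radiotherapy (difference of the log2 changes, without minus with radiotherapy, -1.92 ± 0.23, adjusted p = 0.0154, edgeR). Jaml had 83.9, 79.2 and 74.9 CPM in RT_FAP41BBL, against 43.4, 59.3 and 51.1 CPM in RT (difference -1.27 ± 0.21, adjusted p = 0.0419). Ptgs2 had 113, 111 and 135 CPM in RT_FAP41BBL, against 158, 161 and 155 CPM in RT (difference 1.48 ± 0.23, adjusted p = 0.0311), and Plk2 had a difference of 0.70 ± 0.11 (adjusted p = 0.0311). Against RT alone, FAP41BBL was lower in Ptgs2, Rgs16, Egr1 and Gzmc and higher in Arg2 past the test. The log2 changes were -0.72, -0.60, -0.65, -1.52 and 0.97 (adjusted p from 0.00977 to 0.0421, edgeR). These 5 of the 24 were chosen with the same FAP41BBL libraries, so they too are a description. They are not read against the 3.51% of all genes that passed. The RT libraries carried the most skeletal muscle, with mean log2 CPM of 7.81, 7.72 and 8.87 for that list, and its part was not tested; with the muscle level as a covariate 0 genes passed for the difference and 1 against RT.

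**Figure D5:**
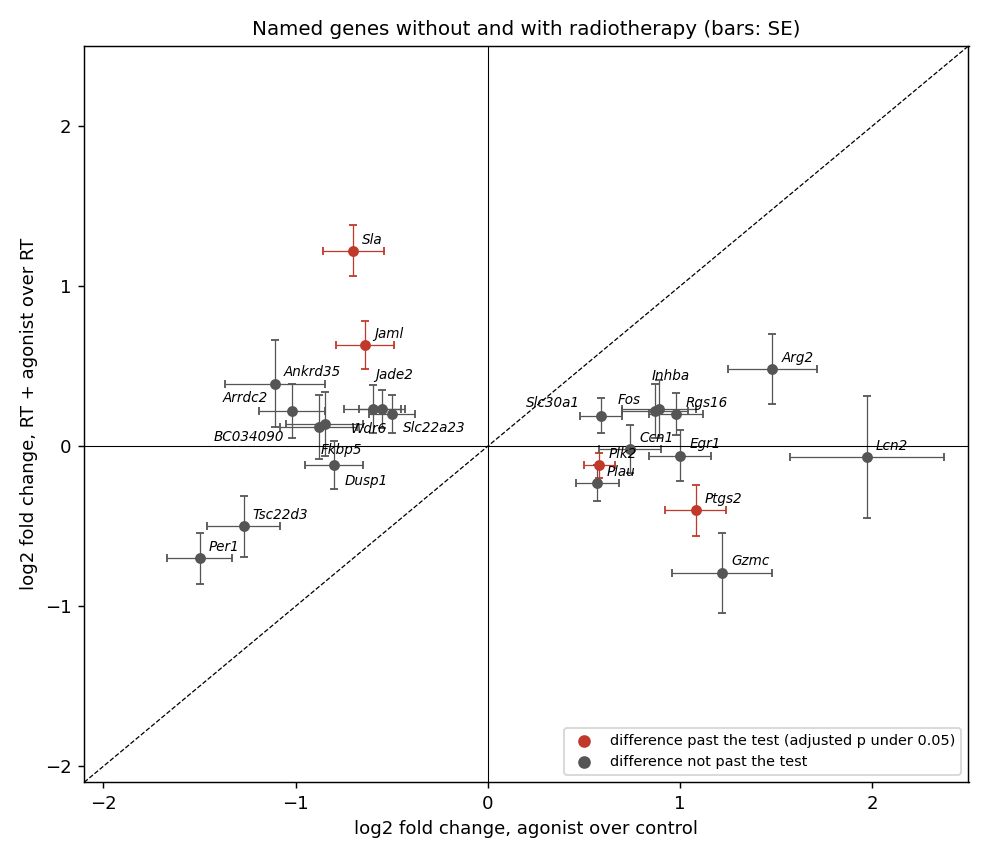
Log2 fold change with its SE of the 24 named genes in FAP41BBL over control (horizontal axis) and in RT_FAP41BBL over RT (vertical axis); the dashed line marks equal changes. Red points are the 4 genes whose changes differed past the test, and Sla and Jaml lie on opposite sides of 0 in the 2 comparisons.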

How the data were processed

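Polyadenylated RNA of 12 mouse tumours, 3 in each of 4 groups, was sequenced from stranded libraries. The deposited files hold unnormalized read counts for each gene, made by featureCounts 1.6.0 on GRCm39 with the reverse strand setting, per the file headers, so antisense neighbours were kept apart; STAR 2.7.9a and FastQC 0.11.8 are named per the submitters' processing notes. Gene symbols came from another annotation by gene identifier and named 91.3% of genes.

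Counts were tested in R 4.3.3 with edgeR 4.0.16: filterByExpr left 17757 genes, TMM scaling, 1 robust quasi-likelihood fit of the 4 groups to all 12 libraries (8 residual degrees of freedom), and p-values adjusted by Benjamini-Hochberg at 0.05, which is the test behind every adjusted p with no other tool named. Lists are described by counts and medians. Alternatives are DESeq2 1.42.0, limma 3.58.1 (voom), other scalings and filters, the replicate block, left-out libraries and tissue scores as covariates.

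The comparison and the 40 lists were chosen with earlier results of these data known. Named were genes past the test; the 12 higher and 12 lower with the smallest p, a mean log2 CPM of at least 1 and groups apart, without predicted, pseudo-, ribosomal, mitochondrial or receptor segment genes; the agent's target and receptor genes and members of the 4-1BB, clock and glucocorticoid lists; up to 5 members of other lists by p; and Cd8a, Cd4, Foxp3, Ifng, Gzmb, Prf1, Pdcd1, Cd274, Mki67 and Adipoq. Col1a1, Vim, Krt8, Epcam and Tnf fall outside the rule and were chosen after their values were seen. The main edgeR fit was also tested on simulated data with known changes, for FAP41BBL against control. The alternatives and the other comparisons were not tested in this way.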

Additional observations from a re-analysis of the deposited data

Results flagged for a closer look

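Hsph1, a heat shock co-chaperone, Plk2, Ptgs2, Sla and Jaml had a change with the agonist that differed between tumours without and with radiotherapy by a test of the difference itself. The differences of the log2 changes, without minus with radiotherapy, were 1.70 for Hsph1 (adjusted p = 0.0307, edgeR), 0.70 for Plk2 (0.0311), 1.48 for Ptgs2 (0.0311), -1.92 for Sla (0.0154) and -1.27 for Jaml (0.0419). Hsph1 had 160, 122 and 103 CPM in FAP41BBL, against 104, 97.0 and 79.8 CPM in control, and 78.5, 86.9 and 87.9 CPM in RT_FAP41BBL, against 177, 236 and 188 CPM in RT. Over 20 other settings the difference stayed past the test in 14 for Hsph1, 15 for Sla, 10 for Ptgs2, 7 for Plk2 and 7 for Jaml, and the sign was the same in each of them. The highest adjusted p over those settings was 0.191 for Hsph1 and Sla, 0.189 for Ptgs2, 0.312 for Plk2 and 0.322 for Jaml. Groups of 3 are too small for a test of single outlying libraries.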

How the results depend on the processing

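Counts of genes past the test depended on the tool and on single libraries. For FAP41BBL against control, the 1 gene became 48 in DESeq2 (35 higher, 13 lower, with 23 of the 24 named genes among them), 42 with the adipocyte score as a covariate (chosen after seeing the data; 41 lower, many of them keratin and skin genes), 9 with no low-count filter, 2 with the skeletal muscle score as a covariate and 0 with the compared groups alone, 0 to 3 with each compared library left out, 5 without RT replicate 2 (Per1, Arg2, Plk2, Rgs16 and Tsc22d3) and 4 without RT_FAP41BBL replicate 2. For RT_FAP41BBL against RT, 1022 became 2063 in DESeq2 and 0 with the muscle score, and 70 to 2305 with a library left out. For the difference with radiotherapy, 27 became 633 in DESeq2, 73 with the adipocyte score, 17 with library totals alone, 102 with no low-count filter, 9 with the replicate block and 0 with the muscle score, and 0 to 269 with a library left out. For FAP41BBL against RT, 623 became 1333 in DESeq2, 210 with the compared groups alone and 1 with the muscle score, and 139 to 884 with a library left out. The cause was not tested. Deviations of same-numbered libraries from their group means had correlations of 0.327, -0.251 and -0.278. With 3 libraries in a group these values cannot decide whether the numbers pair the samples, and the labels give no pairing. The replicate block left Per1 as the 1 gene past the test (-1.50, adjusted p = 0.0171, edgeR).

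The 24 genes named by p were chosen with every FAP41BBL library on the same side of all controls. Their direction with a library left out, or with another tool or scaling, was largely set by that choice. Of 105 named genes, 96 kept their direction in all 15 other settings, these 24 included. The other 9, none of them past the test, changed sign: with the adipocyte score Per2 gave -0.01, Per3 -0.00, Cry2 -0.20, Clock -0.04, Fap -0.21, Hlf -0.12, Dgat2 -0.05 and Adipoq -0.20; with each library left out Cry2 ran from -0.00 to 0.16, Clock from -0.04 to 0.26, Fap from -0.23 to 0.75 and Cd8a from -0.12 to 0.25. Of list medians beyond 0.1, those that turned without FAP41BBL replicate 3 were skeletal muscle (-0.85), B and plasma cells (-0.15), dendritic cells (-0.09, and -0.02 without FAP41BBL replicate 2), endothelial cells (-0.10) and pericytes (-0.07), and the hair follicle list turned without control replicate 2 (0.92). With the adipocyte score the medians were -0.56 for B and plasma cells, -0.03 for complement, -0.32 for endothelial cells, -0.82 for epithelial cells, -0.25 for pericytes, -0.48 for skeletal muscle, -0.08 for adipocytes and -0.0 for the core clock. With the muscle score the median was -0.14 for skeletal muscle. With limma-voom the mammary median was 2.52 and the hair follicle median -0.51. Medians nearer 0 also changed sign, such as fibroblasts, which gave -0.43 with the adipocyte score.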

Other observations

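Cholesterol synthesis genes, which encode enzymes that build sterols in the cell and regulators of the pathway, all had a log2 change below 0 in FAP41BBL against control. The 21 members tested had a median of -0.25, which was -0.52 without FAP41BBL replicate 1 and -0.06 without FAP41BBL replicate 2. In 1 of them, Dhcr7, every FAP41BBL library lay below every control library (4.76%, near the 5.07% of all genes). The summed level of the members was 869 to 1600 CPM in FAP41BBL and 1310 to 1510 CPM in control, so the groups overlapped.

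Neutrophil genes had 4 of 14 tested members higher without overlap (28.6%, against 5.7% of all genes) and a median of 0.48, which was 0.11 without FAP41BBL replicate 3 and 0.08 with the adipocyte score as a covariate. Clec4d and Clec4e, lectin receptors that sense fungal and mycobacterial glycolipids, gave log2 changes of 0.57 ± 0.19 and 0.63 ± 0.22 (adjusted p of 0.829 and 0.872, edgeR). Mast cell and eosinophil genes had a median of -0.45 (-0.03 without control replicate 1), and 1 of 17 was apart (5.88%). Tpsab1, a mast cell tryptase, overlapped, with 30.4, 28.9 and 38.7 CPM in FAP41BBL, against 90.5, 65.7 and 26.3 CPM in control. The eosinophil receptor Ccr3 had 0.982, 1.19 and 6.09 CPM in FAP41BBL, against 1.32, 0.978 and 0.879 CPM in control, with replicate 3 of FAP41BBL far above the rest. Hypoxia and glycolysis genes were mixed, with 1 of 24 higher (4.17%) and 3 lower without overlap (12.5%, against 5.07%); Vegfa, the growth factor of blood vessels, had 164, 171 and 151 CPM in FAP41BBL, against 84.7, 129 and 148 CPM in control.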
